A study of Mus musculus with 18 samples.

Results

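The contrast described here is the enrichment difference between choroid and brain, the log2 ratio of the positive fraction to the input in choroid minus the same log2 ratio in brain, for each gene listed in both tissues. It uses 12 of the 18 libraries of the study and 11121 genes. All mice were Tie2-cre+; NuTRAP+. The NuTRAP allele gives cells with Cre activity a GFP-tagged ribosomal subunit, and an anti-GFP pull-down of ribosomes (translating ribosome affinity purification, TRAP) yields the positive fraction, while the input is lysate set aside before the pull-down. The groups were choroid positive, choroid input, brain positive and brain input, with 3 biological replicates in each, numbered 421, 953 and 960. A choroid sample held the scraped choroid and retinal pigment epithelium (RPE) of 2 eyes, and a brain sample was 0.5 of a brain. The Tie2 promoter is active in endothelium and also in the blood lineage, so the tagged cells need not all be endothelial. The sources give neither age nor sex, and no library from mice lacking the transgenes was analysed here.

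The capillaries beneath the RPE are fenestrated: diaphragm-covered pores let solutes and retinol-carrying proteins pass to the pigment epithelium. Brain capillaries instead form the blood-brain barrier, in which Wnt signals from neural cells through beta-catenin keep tight junctions closed, hold down vesicle traffic and maintain carriers for glucose, amino acids, lipids and hormones. An enrichment is a ratio, so it depends on how much of a transcript the tagged cells hold and on how much the rest of the tissue holds. The enrichment difference equals the positive difference (choroid positive minus brain positive, log2) minus the input difference (choroid input minus brain input, log2), and each result below is given with these parts.

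The expected counts of the joined genes summed to 2598136 to 4526787 in the choroid positive libraries, 8405012 to 13762160 in the choroid inputs, 17995571 to 27193324 in the brain positive libraries and 9070318 to 29876524 in the brain inputs. Of the genes listed, 597 were listed in choroid only and 1798 in brain only. Pearson correlations between replicates (log2 of CPM + 1) were 0.937 to 0.957 in choroid positive, 0.937 to 0.971 in choroid input, 0.984 to 0.991 in brain positive and 0.904 to 0.996 in brain input. The brain input 960 stood apart: its 77 cytosolic ribosomal protein genes summed to 45581 CPM, against 15999 and 16203 CPM in the brain inputs 421 and 953. Choroid input 421 held 6210.3 CPM over 6 oligodendrocyte genes, against 388 and 679 CPM in the other two choroid inputs and 5151 to 5493 CPM in the brain inputs, so that it exceeded every brain input. Rpe65 and Lrat, enzymes of the visual cycle in RPE, were listed in choroid only, and the 9 neuronal genes measured summed to 203 to 481 CPM in choroid inputs and 10446 to 10668 CPM in brain inputs.

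At an adjusted p under 0.05 (edgeR quasi-likelihood test, Benjamini-Hochberg adjustment over all 11121 genes), the enrichment difference was higher in choroid for 1054 genes (9.48%) and lower for 1241 genes (11.2%). The difference was at least 2-fold for 710 and 1062 of them. Its median over all genes was 0.073 (log2). The positive difference was called higher for 2572 genes (23.1%) and lower for 2107 (18.9%), and the input difference was called higher for 3001 genes (27.0%) and lower for 2995 (26.9%). Scaling moves the split of the calls: with library size as the only scaling, the enrichment difference was called higher for 416 genes and lower for 2043, and its median over all genes was −0.29. With median-ratio (RLE) size factors the counts were 752 and 1395. Input and positive libraries of 1 number in a tissue came from 1 lysate, and a fit that paired them called 1044 genes higher and 1394 lower, keeping 90.6% of the calls of the unpaired fit that is used here. Values from the paired fit are given where they change a call or move a count by over 1.5-fold. List medians below are set against the median of all genes. The lists were chosen with earlier results of these data known, so their counts and directions are descriptions.

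In most called genes the input difference was itself called, as it was, higher or lower, for 27.0% and 26.9% of all genes. The classes below share the fit with the difference, so they are descriptions, and "only" means that the other part was not called. Genes with parts in opposition include some whose input acts against the call. Of the 1054 genes called higher, 236 (22.4%) had a called positive difference in that direction with no called input difference, and 463 (43.9%) had only the input difference called, lower in choroid input than in brain input. In 82 genes both parts were called in the direction of the difference, and in 240 (22.8%) both were called but in opposition. Of the 1241 genes called lower, 103 (8.30%) were called through the positive difference only, 563 (45.4%) through a higher choroid input only, 94 through both, and 473 (38.1%) had both parts called in opposition. No part was called in the direction of the difference for 33 of the genes called higher and 8 of those called lower. The median enrichment difference of the genes called lower through both parts was −3.15, against −1.58 for those called through the input only and −1.49 for those called through the positive fraction only. Without the brain input 960, 1387 genes were called higher and 1525 lower.

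**Figure D1:**
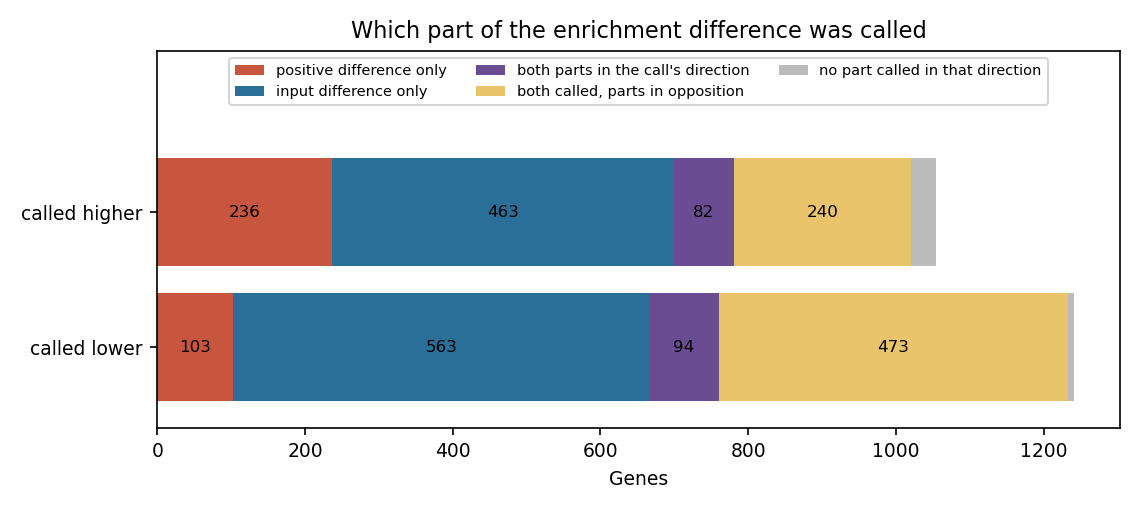
Number of genes called higher (top bar) and lower (bottom bar) in choroid enrichment than in brain enrichment, coloured by which part of the difference was called at an adjusted p under 0.05. The input difference alone accounts for the longest segment in both bars, 463 and 563 genes.

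**Figure D2:**
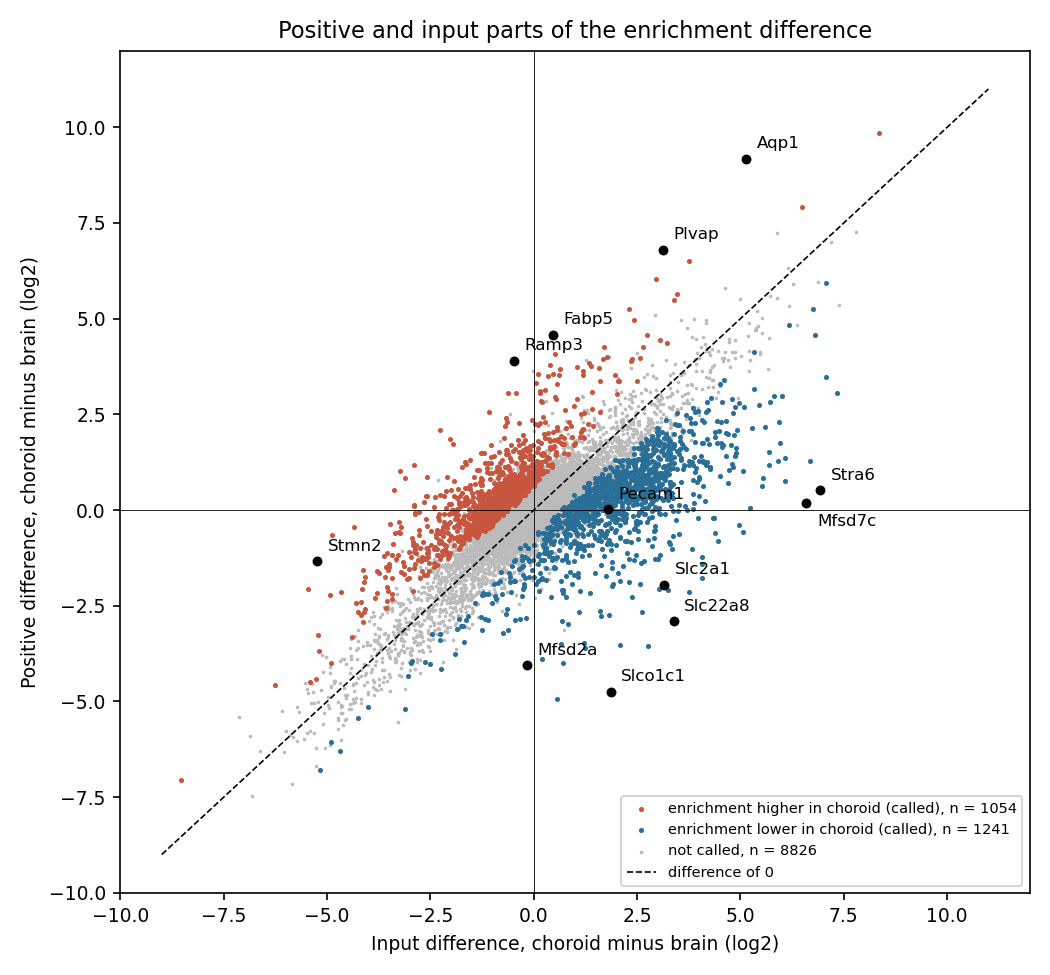
Positive difference (vertical axis) against input difference (horizontal axis), both choroid minus brain in log2, for 11121 genes; the dashed line marks an enrichment difference of 0. Ramp3 and Fabp5 lie above the line near an input difference of 0, Mfsd2a lies below it near an input difference of 0, and Stra6 and Mfsd7c lie below it near a positive difference of 0.

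Ramp3 had the highest enrichment difference among the genes that met the filters for naming. It encodes a receptor activity-modifying protein that joins the calcitonin receptor-like receptor to form an adrenomedullin receptor. Ramp3 had 321, 328 and 328 CPM in the choroid positive libraries, 18.2, 12.4 and 19.5 CPM in the choroid inputs, 19.9, 23.1 and 22.1 CPM in the brain positive libraries and 18.4, 18.1 and 34.7 CPM in the brain inputs. All 3 choroid positive libraries lay far above the 9 others, which overlapped one another. Its enrichment difference was 4.39 ± 0.36 (adjusted p = 1.65e-05), made of a positive difference of 3.91 and an uncalled input difference of −0.49. Plvap encodes the protein of the diaphragms that span endothelial fenestrae. Plvap had 4664, 3123 and 4019.6 CPM in the choroid positive libraries, 365, 225 and 297 CPM in the choroid inputs, 44.5, 37.1 and 24.4 CPM in the brain positive libraries and 32.5, 30.9 and 38.2 CPM in the brain inputs. The choroid positive libraries were the highest and the choroid inputs the next, with no overlap, while the brain fractions overlapped. Its enrichment difference was 3.67 ± 0.37 (adjusted p = 5.58e-05), from a positive difference of 6.80 that was reduced by an input difference of 3.13. Within brain, Plvap showed an enrichment of 0.064, and within choroid of 3.73.

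At the other end stood a pair of transporters of the blood-brain barrier. Slco1c1 (Oatp1c1) carries thyroxine into the brain. It had 36.8, 16.6 and 35.8 CPM in the choroid positive libraries, 94.8, 151 and 148 CPM in the choroid inputs, 827, 1031 and 531 CPM in the brain positive libraries and 41.2, 40.9 and 25.6 CPM in the brain inputs. Brain positive libraries were the highest, choroid inputs followed, and no choroid positive library reached the lowest choroid input. The enrichment difference was −6.61 ± 0.51 (adjusted p = 1.1e-05), with a positive difference of −4.74 and an input difference of 1.87. Slc22a8 (Oat3) transports organic anions. It had 24.5, 19.8 and 31.3 CPM in the choroid positive libraries, 113, 158 and 160.4 CPM in the choroid inputs, 198, 235 and 129 CPM in the brain positive libraries and 14.5, 16.3 and 9.96 CPM in the brain inputs. Here the choroid inputs overlapped the brain positive libraries, and every choroid positive library lay below both. Its enrichment difference was −6.29 ± 0.40 (adjusted p = 3.3e-06), from a positive difference of −2.90 and an input difference of 3.39. Both genes were depleted by the pull-down in choroid (−2.14 and −2.52) and enriched by it in brain (4.47 and 3.77).

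**Figure D3:**
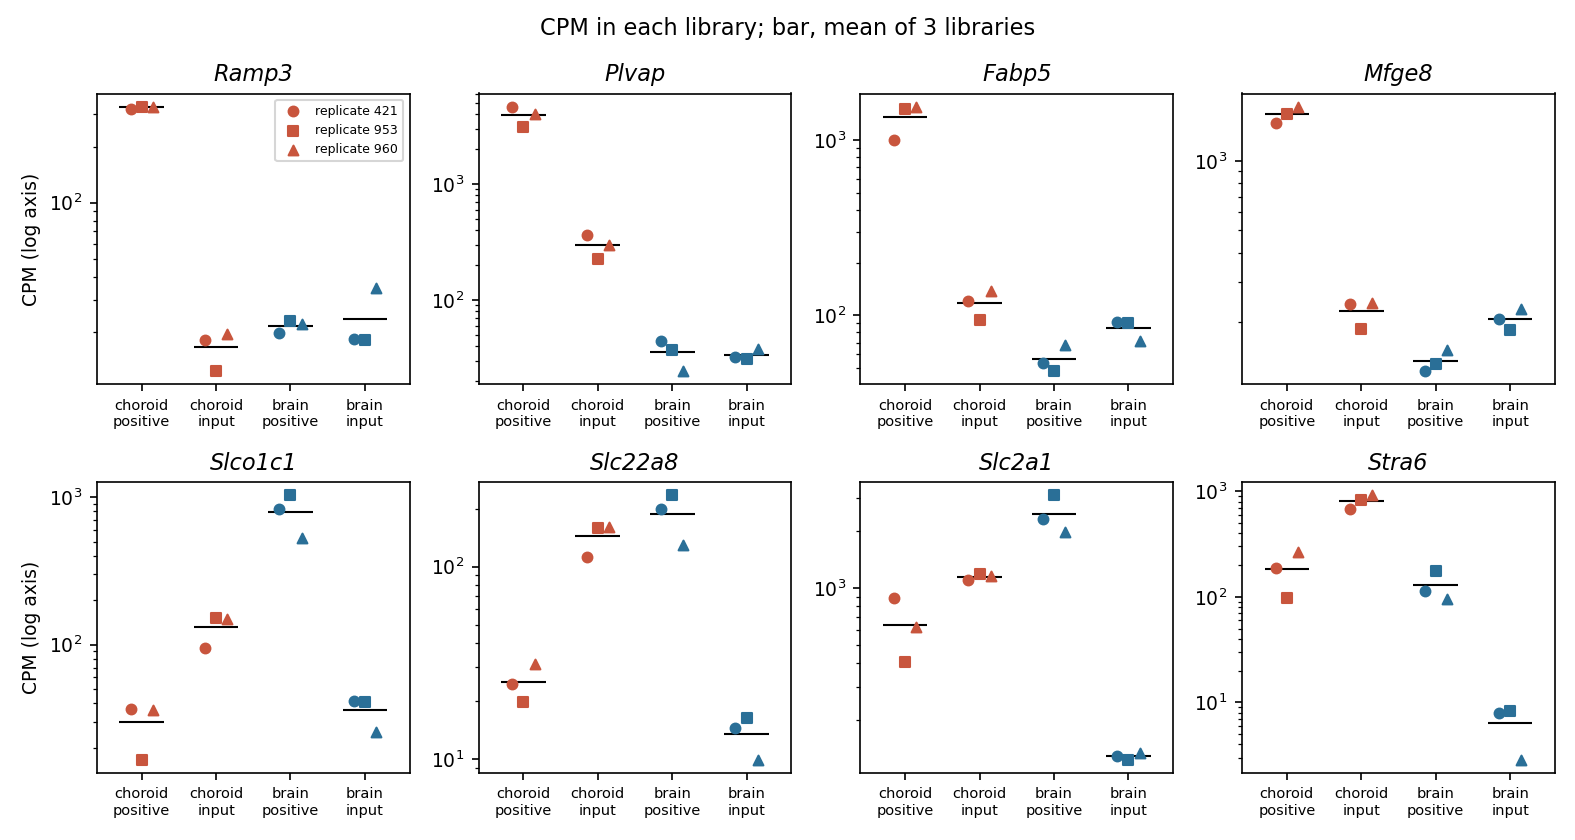
CPM on a log axis in each of the 12 libraries for 8 genes, with choroid in red and brain in blue, marker shapes for the replicate numbers, and bars for the mean of 3 libraries. Ramp3, Plvap, Fabp5 and Mfge8 are highest in choroid positive libraries, Slco1c1 and Slc2a1 are highest in brain positive libraries, and Stra6 is highest in choroid inputs.

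The promoter windows of 4 genes at the ends of the contrast are shown to let their letters be set beside the values: Ramp3 for the genes called through the positive difference with higher choroid enrichment, Mfsd2a for its counterpart with lower choroid enrichment, and Slco1c1 and Slc22a8 for the transporters called through both parts. Each covers 250 bases before and 50 after the transcription start, 5′ to 3′ on the gene's strand, from RefSeq on GRCm38.p6. The windows are chr11:6658283-6658582 (+ strand), chr4:122961139-122961438 (− strand), chr6:141524104-141524403 (+ strand) and chr19:8592932-8593231 (+ strand). Capitals mark matches on either strand to 4 letter strings: the ETS core CCGGAA, the SOX string ACAATN, the TCF/LEF core CTTTGA and the forkhead string TGTTTA.
Ramp3: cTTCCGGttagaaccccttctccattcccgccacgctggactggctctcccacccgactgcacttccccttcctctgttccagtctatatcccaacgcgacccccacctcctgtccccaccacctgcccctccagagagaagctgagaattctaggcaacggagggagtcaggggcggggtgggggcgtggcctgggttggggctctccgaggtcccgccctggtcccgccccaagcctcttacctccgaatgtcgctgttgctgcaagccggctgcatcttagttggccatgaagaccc
Mfsd2a: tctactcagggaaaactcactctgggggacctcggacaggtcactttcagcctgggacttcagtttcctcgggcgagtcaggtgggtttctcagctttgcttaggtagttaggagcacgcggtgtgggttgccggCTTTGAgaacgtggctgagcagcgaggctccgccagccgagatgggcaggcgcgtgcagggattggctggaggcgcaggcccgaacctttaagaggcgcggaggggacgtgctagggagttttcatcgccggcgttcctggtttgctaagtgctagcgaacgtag
Slco1c1: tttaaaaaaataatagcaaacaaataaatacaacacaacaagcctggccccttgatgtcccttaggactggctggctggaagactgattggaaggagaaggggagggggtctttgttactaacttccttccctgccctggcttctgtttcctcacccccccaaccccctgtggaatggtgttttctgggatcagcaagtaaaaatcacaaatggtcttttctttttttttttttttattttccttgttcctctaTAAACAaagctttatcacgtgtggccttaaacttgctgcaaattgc
Slc22a8: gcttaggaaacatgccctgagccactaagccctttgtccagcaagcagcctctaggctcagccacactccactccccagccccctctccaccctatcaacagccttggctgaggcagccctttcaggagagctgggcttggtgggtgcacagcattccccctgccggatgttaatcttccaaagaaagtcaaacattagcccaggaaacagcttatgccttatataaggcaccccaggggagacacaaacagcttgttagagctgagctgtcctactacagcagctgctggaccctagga
Ramp3 held 1 ETS core, Mfsd2a 1 TCF/LEF core, Slco1c1 1 forkhead string, and Slc22a8 none of the 4 strings. Of 32851 promoter windows of the same length, 14.9% held the ETS core, 31.0% the SOX string, 16.0% the TCF/LEF core and 13.4% the forkhead string. Each of the 4 printed windows held at most 1 match, so no matches overlapped in them.

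Of 11 genes tied to fenestrated or choroidal endothelium that were measured in both tissues, 6 were called higher, against 9.48% of all genes, and 1 lower, against 11.2%. Without brain positive 953 none was called lower. The list was chosen with its genes' behaviour in choroid known, so its direction is a description. Its median enrichment difference was 1.77, with a median positive difference of 3.58 and a median input difference of 2.33, against 0.073, 0.12 and −0.054 over all genes. All 11 had a called higher positive difference, against 23.1% of all genes. Igfbp3, a secreted binder of insulin-like growth factors, had 2964, 2364 and 2298 CPM in the choroid positive libraries, 213, 171 and 196 CPM in the choroid inputs, 59.2, 55.5 and 38.3 CPM in the brain positive libraries and 16.3, 19.4 and 17.0 CPM in the brain inputs. Its positive libraries did not overlap between tissues and neither did its inputs, and the enrichment difference was 2.18 ± 0.28 (adjusted p = 0.000269). Ppap2a (Plpp1), a lipid phosphate phosphatase, had a difference of 2.51 ± 0.22 (adjusted p = 2.52e-05). Igfbp5 and Nrp1 were not called, at −0.047 ± 0.44 and 0.71 ± 0.37. Nrp1, a coreceptor for VEGF and semaphorins, was higher in both choroid fractions, with positive and input differences of 2.68 and 1.97.

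Several other genes with higher choroid enrichment were carried by the positive fraction. Fabp5, a fatty acid-binding protein, had 1004, 1507 and 1543 CPM in the choroid positive libraries, 120.2, 93.6 and 137 CPM in the choroid inputs, 53.5, 48.2 and 67.9 CPM in the brain positive libraries and 91.2, 90.4 and 71.7 CPM in the brain inputs. Every choroid positive library lay far above all others, and the input difference of 0.47 was not called. Its enrichment difference was 4.11 ± 0.32 (adjusted p = 1.25e-05). Mfge8, a secreted protein that bridges integrins to phosphatidylserine, had 1455, 1589.5 and 1714 CPM in the choroid positive libraries, 239.9, 187 and 242 CPM in the choroid inputs, 123, 132 and 151 CPM in the brain positive libraries and 206, 185 and 229 CPM in the brain inputs. Its inputs overlapped between tissues, and the enrichment difference was 3.44 ± 0.24 (adjusted p = 6.85e-06), with a positive difference of 3.55. Cyp26b1, which breaks down retinoic acid, had a positive difference of 4.09 and an enrichment difference of 3.57 ± 0.61 (adjusted p = 0.00169). The neuropeptide gene Nmb showed an enrichment difference of 3.48 ± 0.48 (adjusted p = 0.000401). Mcam (CD146), an adhesion molecule of endothelium and pericytes, showed 3.38 ± 0.44 (adjusted p = 0.000297). Hdc, the enzyme that makes histamine, showed 2.91 ± 0.47 (adjusted p = 0.00114). Hdc is also a mast cell gene, and of 7 other members of the mast cell list Mcpt4, Tpsb2, Cpa3 and Cma1 were listed in choroid only, where each was higher in all 3 positive libraries than in all 3 inputs. Of the 3 members measured in both tissues, Hdc alone was called, where 9.48% of all genes were called higher and 11.2% lower. Their median enrichment difference was 0.044, and without the brain input 960, 1 was called higher and 1 lower. The part of mast cells in the Hdc result was not tested.

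Aqp1, Six3 and Anpep combined a high positive difference with a high input difference. Aqp1, a water channel, had 2480.3, 1084 and 1655 CPM in the choroid positive libraries, 335, 196 and 230.0 CPM in the choroid inputs, 2.74, 2.93 and 3.34 CPM in the brain positive libraries and 7.65, 8.08 and 5.64 CPM in the brain inputs. All choroid libraries lay above all brain libraries. Its positive difference of 9.17 exceeded the input difference of 5.14, which left an enrichment difference of 4.04 ± 0.43 (adjusted p = 7.89e-05). Six3, a homeobox gene of eye and forebrain development, had 701, 782 and 893 CPM in the choroid positive libraries, 172, 207 and 258 CPM in the choroid inputs, 10.8, 10.4 and 14.9 CPM in the brain positive libraries and 24.3, 19.7 and 38.0 CPM in the brain inputs. Its enrichment difference was 3.07 ± 0.36 (adjusted p = 0.000159), and the pull-down enriched it in choroid (1.90) and depleted it in brain (−1.18). Anpep, aminopeptidase N, had a difference of 2.75 ± 0.27 (adjusted p = 5.43e-05), with a positive difference of 6.51. In the mural cell list, Anpep and Mcam were called higher and Myl9, a myosin light chain of smooth muscle, was called lower (−1.22 ± 0.34 (adjusted p = 0.0268), called in 5 of the 12 fits that left out 1 library), while the median of the 10 measured members was −0.28. Of all genes, 9.48% were called higher and 11.2% lower.

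A further group had higher choroid enrichment with a brain input above the choroid input. Stmn2, a microtubule regulator of neurons, had 94.5, 88.9 and 117 CPM in the choroid positive libraries, 12.1, 12.7 and 12.6 CPM in the choroid inputs, 262, 221 and 272 CPM in the brain positive libraries and 428, 387 and 594 CPM in the brain inputs. Both brain fractions were above both choroid fractions, yet the pull-down enriched it in choroid (3.00) and depleted it in brain (−0.90), and the enrichment difference was 3.90 ± 0.27 (adjusted p = 6.85e-06). Adora2a, the A2a adenosine receptor, had 20.2, 29.7 and 24.2 CPM in the choroid positive libraries, 4.34, 4.13 and 4.91 CPM in the choroid inputs, 9.45, 11.2 and 15.6 CPM in the brain positive libraries and 41.1, 42.6 and 43.0 CPM in the brain inputs. Its input difference was −3.24, its positive difference 1.03 and its enrichment difference 4.26 ± 0.32 (adjusted p = 8.82e-06). Car8, Rnd1 and Dlk1 had enrichment differences of 3.95 ± 0.36, 4.06 ± 0.40 and 3.91 ± 0.50, with input differences of −3.12, −2.90 and −3.39. Of 9 neuronal genes, 2 were called higher (Stmn2 and Camk2a), against 9.48% of all genes, and none lower, against 11.2%. Their median enrichment difference was −0.17, with median positive and input differences of −4.79 and −4.65. Camk2a was called in 4 of the 12 fits that left out 1 library and was not called in the paired fit, at 1.43 ± 0.52 (adjusted p = 0.0835), so that 1 neuronal gene remained. Without choroid input 421, 1 neuronal gene was called. Snap25 and Syp, proteins of synaptic vesicle release, gave −0.52 ± 0.84 and 0.39 ± 0.76.

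Lars2, the mitochondrial leucyl-tRNA synthetase, and Rn45s, the ribosomal RNA precursor, moved together. Lars2 had 1332, 179 and 242 CPM in the choroid positive libraries, 96.5, 149 and 132 CPM in the choroid inputs, 136, 114 and 159.7 CPM in the brain positive libraries and 424, 294 and 1090.2 CPM in the brain inputs. All 3 choroid positive libraries lay above the choroid inputs, and the brain inputs lay above the brain positive libraries. The differences were 4.36 ± 0.97 (adjusted p = 0.00831) for Lars2 and 3.68 ± 0.72 (adjusted p = 0.00386) for Rn45s. Rn45s had 10214, 2948 and 3236 CPM in the choroid positive libraries, 2373, 3229 and 2434 CPM in the choroid inputs, 1756, 1429.7 and 1795 CPM in the brain positive libraries and 8509, 5167 and 17713 CPM in the brain inputs. Choroid positive 421 was the highest of its group and brain input 960 the highest of its group for both genes, and their positive and input libraries of choroid overlapped for Rn45s. Mmp24, a membrane metalloproteinase, showed 4.24 ± 0.58, but its gene overlaps another listed gene on the opposite strand, and the sources do not say whether reads were counted by strand.

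Transport genes of the blood-brain barrier formed the group with the lowest median. Of 24 measured in both tissues, 22 were called lower, against 11.2% of all genes, and 0 higher, against 9.48%, and the median enrichment difference was −3.14. The positive difference was called lower for 20 of them and higher for 1 (median −1.87), against 18.9% and 23.1% of all genes. The input difference was called higher for 16 and lower for 3 (median 1.18), against 27.0% and 26.9%. Of the 22 called lower, 12 were called through both parts, 5 through the positive difference only and 3 through the input only, and 2 had parts in opposition. This list includes Slco1c1 and Slc22a8 and was chosen with earlier results known, so its direction is a description. Slc2a1 (Glut1), the glucose carrier of the barrier, had 882, 405 and 625 CPM in the choroid positive libraries, 1100.1, 1183 and 1152 CPM in the choroid inputs, 2311, 3091 and 1983 CPM in the brain positive libraries and 129, 124 and 135 CPM in the brain inputs. Brain positive libraries were the highest and brain inputs the lowest, while choroid inputs were above the choroid positive libraries. The enrichment difference was −5.10 ± 0.38 (adjusted p = 8.85e-06), with a positive difference of −1.95 and an input difference of 3.15. Slc2a1 is also a major transporter of the RPE, and choroid inputs contained RPE. The part of RPE in its input difference was not tested.

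Mfsd2a, the carrier of lysophosphatidylcholine with docosahexaenoic acid, was called through the positive fraction alone. It had 12.3, 7.36 and 6.26 CPM in the choroid positive libraries, 21.8, 23.2 and 23.3 CPM in the choroid inputs, 135, 189 and 120.2 CPM in the brain positive libraries and 26.2, 26.4 and 23.8 CPM in the brain inputs. The inputs of the tissues lay close together, choroid inputs just below brain inputs, and brain positive libraries were the highest of all. The enrichment difference was −3.89 ± 0.33 (adjusted p = 2e-05), with a positive difference of −4.05 and an input difference of −0.16. Slco1a4, another organic anion carrier, had an enrichment difference of −5.34 ± 0.40 (adjusted p = 9.32e-06), although reads can be shared with its close paralogs. Spock2 and Abca2 were the uncalled members, at −0.79 ± 0.67 and −0.10 ± 0.54. Spock2, although on the list, encodes a secreted proteoglycan rather than a carrier. Without choroid positive 421 Spock2 was called lower at −1.68 ± 0.50 (adjusted p = 0.0366). Mfsd7c (Flvcr2), a choline carrier of the barrier that was not on the list, differed in another way. Mfsd7c had 57.0, 50.9 and 74.7 CPM in the choroid positive libraries, 186, 290.1 and 266 CPM in the choroid inputs, 57.7, 63.3 and 40.6 CPM in the brain positive libraries and 2.74, 2.85 and 1.80 CPM in the brain inputs. The positive libraries of the tissues overlapped, with a positive difference of 0.17, and the inputs were far apart, with an input difference of 6.60, so that its enrichment difference was −6.43 ± 0.37 (adjusted p = 2.74e-06). Slc38a5, Slc19a3, Slc30a10 and Slc7a3 were listed in brain only and have no enrichment difference here.

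**Figure D4:**
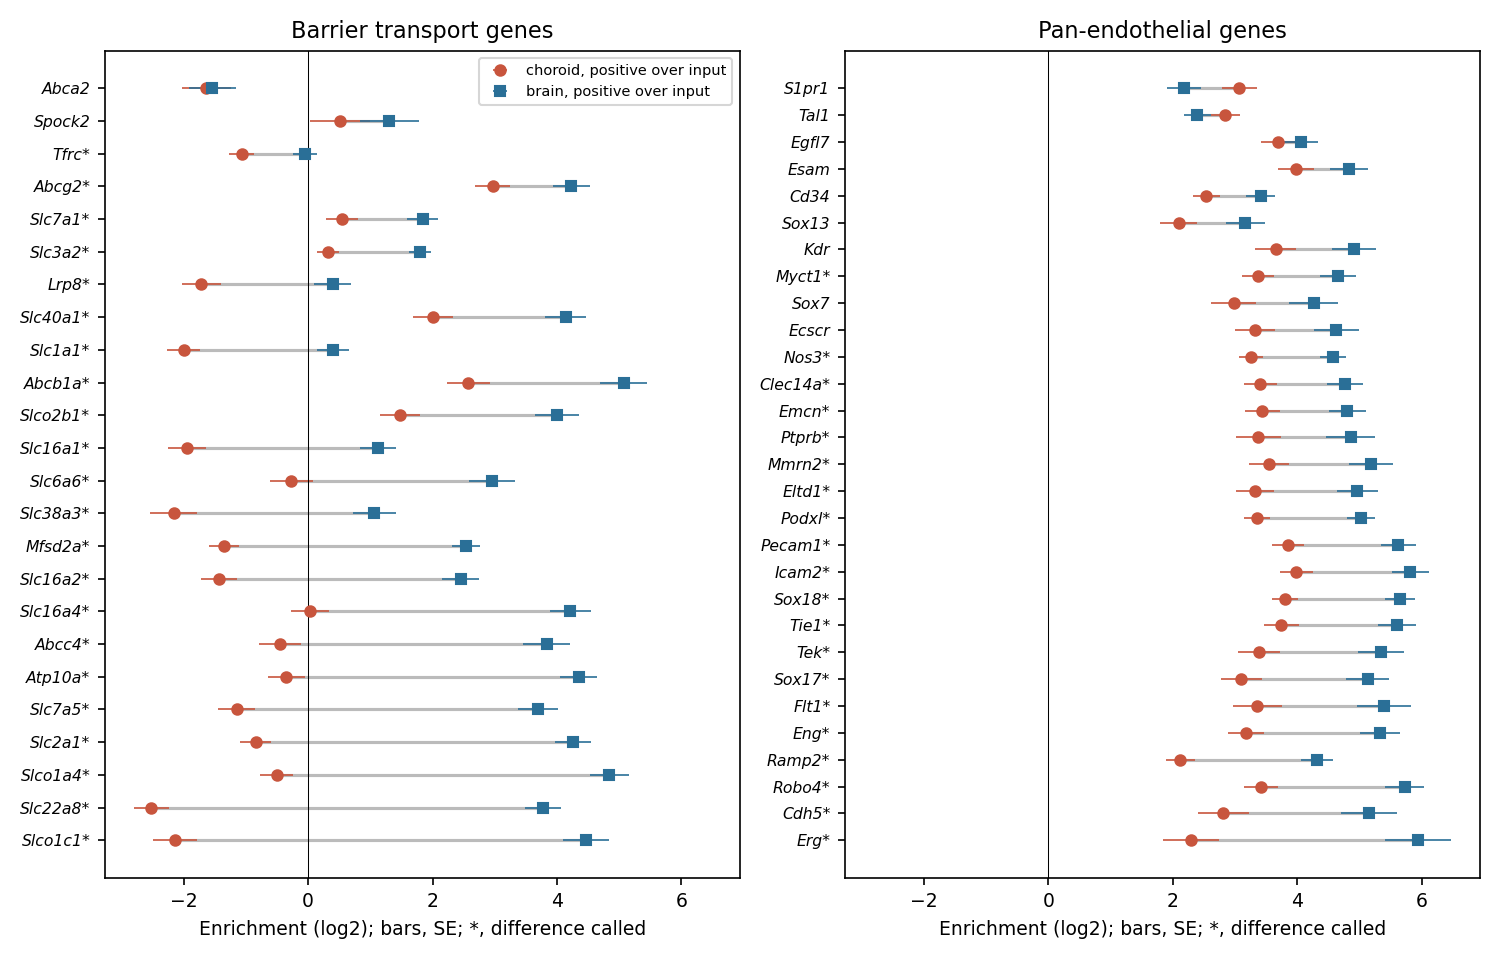
Enrichment (log2 of positive over input, with SE) in choroid (red circles) and brain (blue squares) for 24 barrier transport genes (left) and 29 pan-endothelial genes (right), ordered by the enrichment difference; asterisks mark called differences. Many transport genes fall on opposite sides of 0 in the tissues, whereas all pan-endothelial genes lie above 0 in both.

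Tight junction genes were 10 lower and 0 higher of 12, against 11.2% lower and 9.48% higher of all genes, with a median of −1.75. Ocln (occludin) had 12.3, 14.4 and 5.37 CPM in the choroid positive libraries, 16.7, 12.5 and 13.8 CPM in the choroid inputs, 131, 150.1 and 92.4 CPM in the brain positive libraries and 11.6, 8.56 and 6.96 CPM in the brain inputs. Choroid positive libraries were far below brain positive ones, the choroid inputs were slightly above the brain inputs, and its enrichment difference was −4.15 ± 0.44 (adjusted p = 6.81e-05). Lsr and Marveld2 (tricellulin), both of tricellular junctions, had differences of −4.23 ± 0.47 (adjusted p = 0.000101) and −3.59 ± 0.45 (adjusted p = 0.000243). Cldn5, the main claudin of endothelium, was not called. It had 1343, 1136 and 1258 CPM in the choroid positive libraries, 83.2, 38.7 and 66.8 CPM in the choroid inputs, 1381, 1502 and 1165 CPM in the brain positive libraries and 24.0, 25.0 and 86.6 CPM in the brain inputs. The positive libraries of the tissues overlapped, the pull-down enriched it in both (4.31 in choroid and 4.91 in brain), and its difference was −0.60 ± 0.61 (adjusted p = 0.521). The brain input 960 was the highest of the brain inputs, and without it Cldn5 was called lower, at −1.48 ± 0.35 (adjusted p = 0.00978). The junctional adhesion molecule F11r was called lower (−2.09 ± 0.29 (adjusted p = 0.000447)) with an uncalled positive difference of 0.36.

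Wnt pathway and barrier transcription genes were 15 lower and 1 higher of 19, against 11.2% and 9.48% of all genes, with a median of −2.60, a median positive difference of −1.13 and a median input difference of 0.93. Over the 12 fits that left out 1 library, 0 to 1 were called higher and 14 to 16 lower. Apcdd1, a Wnt inhibitor that is itself a Wnt target, had 13.8, 5.44 and 5.82 CPM in the choroid positive libraries, 26.3, 26.9 and 6.25 CPM in the choroid inputs, 277, 325 and 204 CPM in the brain positive libraries and 16.9, 16.8 and 5.64 CPM in the brain inputs. Brain positive libraries were the highest and the inputs of the tissues overlapped, with an uncalled input difference of 0.56. Its enrichment difference was −5.51 ± 0.80 (adjusted p = 0.000621). Notum, a secreted Wnt deacylase, showed −5.28 ± 0.70 (adjusted p = 0.000312). Foxf2, a transcription factor of the brain vasculature, had a small positive difference of −0.53 and an input difference of 2.94, for an enrichment difference of −3.47 ± 0.29 (adjusted p = 1.74e-05). Reck, which recognises Wnt7 ligands together with Gpr124, had −3.72 ± 0.51 (adjusted p = 0.000406), and the receptor Fzd6 had −2.92 ± 0.38 (adjusted p = 0.0003). The shared effector Ctnnb1 (beta-catenin) was not called, at −0.19 ± 0.26, nor was the coreceptor Lrp6, at −0.98 ± 0.41, which was called lower without choroid positive 421, at −1.33 ± 0.38 (adjusted p = 0.0317), and in the paired fit, at −1.08 ± 0.31 (adjusted p = 0.0403). The ligand genes Wnt7a and Wnt7b were listed in brain only, where each was lower in every positive library than in every input.

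Stra6, the receptor through which RPE takes up retinol, had a difference that lay in its input part. It had 187, 98.2 and 267 CPM in the choroid positive libraries, 680.1, 822 and 917 CPM in the choroid inputs, 113, 177 and 95.6 CPM in the brain positive libraries and 8.01, 8.32 and 2.88 CPM in the brain inputs. Choroid inputs were above every other library, positive libraries overlapped between the tissues, and brain inputs were the lowest. The enrichment difference was −6.41 ± 0.61 (adjusted p = 3.61e-05), with a positive difference of 0.52 and an input difference of 6.93. Over the 6 RPE genes measured in both tissues the sums were 2385 to 5718 CPM in choroid positive libraries, 9027 to 14669 CPM in choroid inputs, 239.8 to 431 CPM in brain positive libraries and 770.2 to 1628 CPM in brain inputs. A higher input difference was called for 6 of 6, against 27.0% of all genes. The RPE list itself was 0 higher and 2 lower of 6, against 9.48% and 11.2% of all genes. Stra6 and Otx2, a homeobox regulator of RPE (−1.32 ± 0.37 (adjusted p = 0.0254), called in 6 of the 12 fits that left out 1 library), were called, and Rlbp1 and Ttr were not, at −0.90 ± 0.48 and 0.94 ± 0.67. In the paired fit Rlbp1 was called lower, at −0.94 ± 0.29 (adjusted p = 0.0494). The part of RPE transcripts in the enrichment differences was not tested. In bulk samples, fewer cells of a type and less RNA per cell cannot be told apart.

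Further genes with high choroid inputs and low differences included secreted factors and enzymes. Edn3 (endothelin 3) had 75.0, 41.6 and 62.6 CPM in the choroid positive libraries, 254, 131 and 157 CPM in the choroid inputs, 89.0, 89.9 and 55.1 CPM in the brain positive libraries and 6.78, 5.70 and 4.56 CPM in the brain inputs. Its positive libraries overlapped between tissues, its input difference was 4.97, and its enrichment difference was −5.35 ± 0.44 (adjusted p = 1.74e-05). Sema3c, a secreted guidance protein, had 109.7, 81.6 and 136 CPM in the choroid positive libraries, 305, 539 and 485 CPM in the choroid inputs, 303, 342 and 229.6 CPM in the brain positive libraries and 30.7, 28.7 and 19.4 CPM in the brain inputs. Choroid inputs and brain positive libraries overlapped and lay above the rest, and the difference was −5.48 ± 0.40 (adjusted p = 8.82e-06). Adh1, an alcohol and retinol dehydrogenase, had an input difference of 6.68 and an enrichment difference of −5.39 ± 0.72 (adjusted p = 0.000344). Osmr, the oncostatin M receptor, had −4.89 ± 0.30 (adjusted p = 3.02e-06) with an input difference of 5.52. Slc16a9, Tes and St6galnac2 had enrichment differences of −4.61 ± 0.37, −4.73 ± 0.41 and −5.64 ± 0.35, and input differences of 5.90, 6.09 and 5.06.

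Pltp, the phospholipid transfer protein, and Pglyrp1, a peptidoglycan-binding protein, were called lower through both parts. Pglyrp1 had 17.6, 25.0 and 63.1 CPM in the choroid positive libraries, 23.9, 43.9 and 121 CPM in the choroid inputs, 336, 464 and 403 CPM in the brain positive libraries and 5.61, 6.62 and 16.6 CPM in the brain inputs. Brain positive libraries were the highest and its difference was −6.31 ± 0.92 (adjusted p = 0.000609). Pltp, with a difference of −5.89 ± 0.51 (adjusted p = 2.2e-05), overlaps a listed gene on the opposite strand. Rab11fip1, an effector of recycling endosomes, had −5.85 ± 0.29 (adjusted p = 1.42e-06), with a positive difference of −1.78 and an input difference of 4.07. Rad54b, at −5.61 ± 0.43, overlaps a listed gene on the same strand, so its value is uncertain. Fn1 (fibronectin) had 66.5, 47.7 and 36.7 CPM in the choroid positive libraries, 85.0, 96.0 and 70.0 CPM in the choroid inputs, 346, 429 and 250.4 CPM in the brain positive libraries and 29.5, 28.6 and 22.8 CPM in the brain inputs, and its difference was −4.38 ± 0.36 (adjusted p = 1.65e-05). Ddc, the decarboxylase that makes dopamine and serotonin, and Itih5, a hyaluronan-binding protein, were called through the positive fraction alone, at −3.81 ± 0.51 and −4.09 ± 0.54.

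Genes shared by all endothelium were enriched in both tissues, most of them less so in choroid. Of 29 measured, 29 were called enriched in choroid, against a background of 21.2% of all genes, and 29 in brain, against 18.4%. The median enrichment was 3.36 in choroid and 4.92 in brain. The enrichment difference was called lower for 20 and higher for 0, against 11.2% and 9.48% of all genes, with a median of −1.63. Summed over the list, CPM was 14155 to 18638 in choroid positive libraries, 1245 to 2029 in choroid inputs, 7831 to 11103 in brain positive libraries and 477 to 505 in brain inputs. The input difference was called higher for 26 and lower for 1 (median 2.39), against 27.0% and 26.9% of all genes. The positive difference was called higher for 13 and lower for 4 (median 0.45), against 23.1% and 18.9%. Of the 20 genes called lower, 9 had parts in opposition and 8 were called through the input only.

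Flt1, a VEGF receptor, had 1108, 655 and 509 CPM in the choroid positive libraries, 116, 53.7 and 51.2 CPM in the choroid inputs, 935, 993 and 625 CPM in the brain positive libraries and 23.1, 21.8 and 15.2 CPM in the brain inputs. Positive libraries overlapped between tissues, all choroid inputs exceeded all brain inputs, and the enrichment difference was −2.04 ± 0.52 (adjusted p = 0.0163). Podxl, a sialomucin, and Robo4, a guidance receptor of endothelium, had differences of −1.67 ± 0.28 (adjusted p = 0.00142) and −2.31 ± 0.37 (adjusted p = 0.00118). Sox18, an endothelial transcription factor, had −1.85 ± 0.28 (adjusted p = 0.000762). Kdr, the main signalling VEGF receptor, was not called, at −1.26 ± 0.43 (adjusted p = 0.0595). Its positive and input differences were 3.25 and 4.51, and without choroid positive 421 it was called lower, at −1.49 ± 0.44 (adjusted p = 0.0366), as it was in the paired fit, at −1.29 ± 0.21 (adjusted p = 0.00371). Egfl7, secreted by endothelium, gave −0.36 ± 0.35. Without the brain input 960, 23 of the 29 were called lower, and without choroid input 421 18 were called lower and 1 higher.

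**Figure D5:**
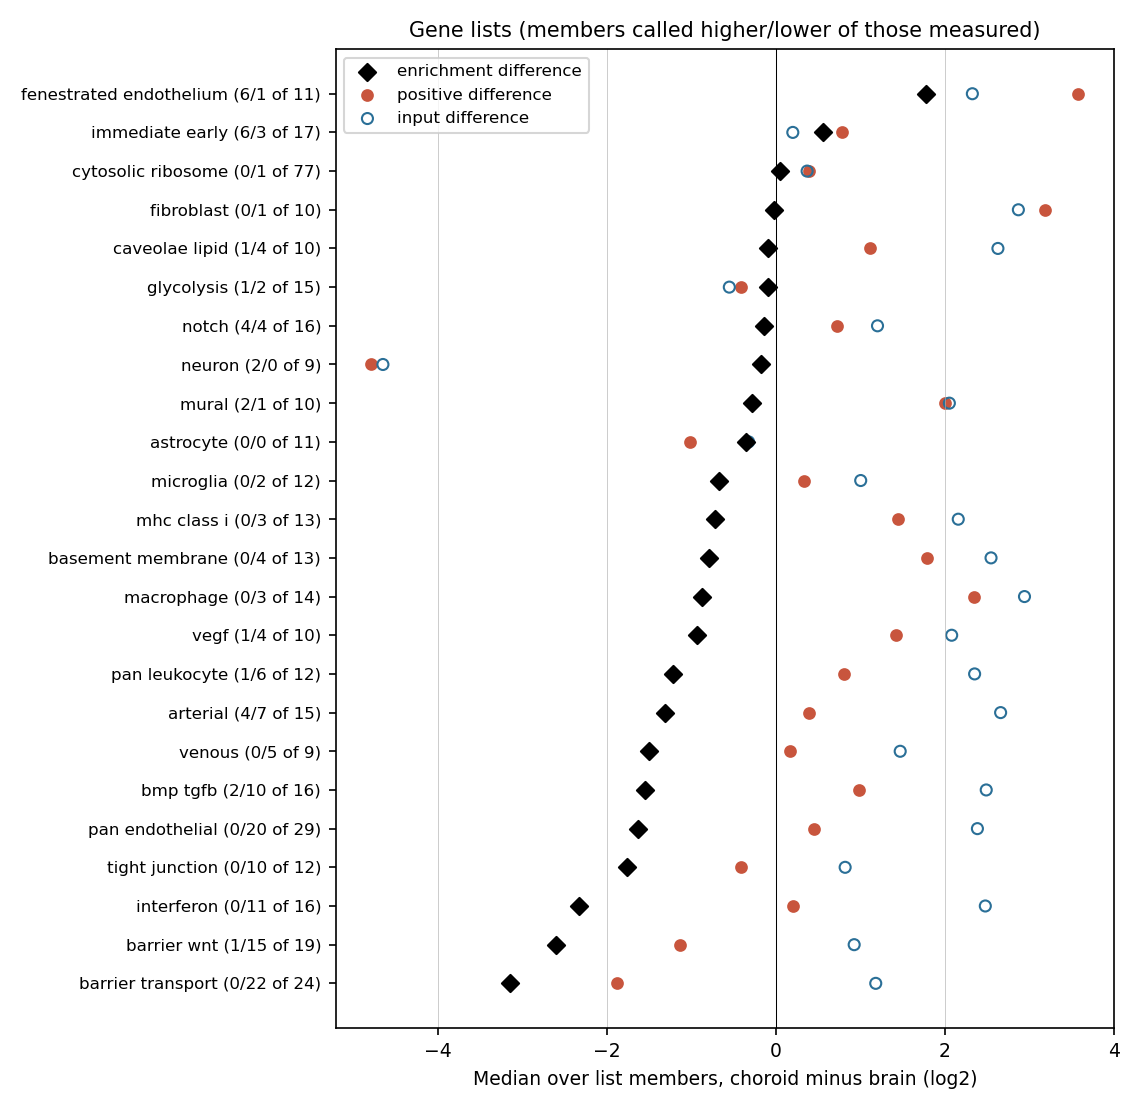
Median enrichment difference (black diamonds), positive difference (red circles) and input difference (open blue circles), choroid minus brain in log2, for the gene lists with at least 9 members measured in both tissues; labels give the members called higher and lower in the enrichment difference. The fenestrated endothelium list has the highest median, 1.77, and the barrier transport list the lowest, −3.14.

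The receptor partners of adrenomedullin, a vasodilator peptide, went different ways. Ramp3 was higher, Ramp2 was lower (−2.20 ± 0.32 (adjusted p = 0.000659)), and Ramp1, which makes a receptor for calcitonin gene-related peptide, was higher (1.73 ± 0.42 (adjusted p = 0.0129)). For Ramp1 the parts were in opposition: both the positive and the input difference were called lower in choroid, the input by more. Ramp2 had 375, 467 and 461 CPM in the choroid positive libraries, 75.3, 101 and 122 CPM in the choroid inputs, 326, 424 and 311 CPM in the brain positive libraries and 15.6, 14.9 and 22.9 CPM in the brain inputs. Its positive libraries overlapped between tissues, with an uncalled positive difference of 0.30, and the input difference was 2.50. The receptor Calcrl, with which all of them pair, had a difference of 0.016 ± 0.43, and the ligand Adm had −0.83 ± 0.50, neither called. Among 10 VEGF pathway genes 1 was called higher, the semaphorin receptor Plxnd1 (1.70 ± 0.37 (adjusted p = 0.00779)), which is close to the 9.48% of all genes. Of the same 10, 4 were called lower, against 11.2% of all genes, with a median of −0.93. The ligands Vegfb and Vegfc were among those lower, at −1.13 ± 0.19 and −2.34 ± 0.44.

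Notch genes split evenly, 4 higher and 4 lower of 16, against 9.48% and 11.2% of all genes, with a median of −0.13. Without any one of brain positive 953, choroid positive 953 or choroid positive 960, 2 of them were called lower. The targets and modifiers Nrarp (2.72 ± 0.35 (adjusted p = 0.000293)), Hey1 (1.71 ± 0.32 (adjusted p = 0.00337)) and Lfng (1.45 ± 0.34 (adjusted p = 0.0107)) were higher, while the ligand Jag1 (−2.37 ± 0.31 (adjusted p = 0.000314)) was lower. Nrarp had 132, 99.8 and 69.8 CPM in the choroid positive libraries, 15.8, 11.1 and 19.0 CPM in the choroid inputs, 32.2, 31.2 and 30.1 CPM in the brain positive libraries and 28.1, 28.1 and 38.2 CPM in the brain inputs. Choroid positive libraries were above all others. Hes1 and Notch4 were not called, at 0.81 ± 0.55 and −0.99 ± 0.44. BMP and TGF-beta genes were 2 higher and 10 lower of 16, against 9.48% and 11.2% of all genes, with a median of −1.55, and over the 12 fits that left out 1 library 0 to 3 were called higher and 9 to 11 lower. The ligand Bmp4, with an input difference of 6.01, had −3.03 ± 0.37 (adjusted p = 0.000196), the receptor Tgfbr2 had −2.62 ± 0.44 (adjusted p = 0.00155), and the target Id3 was called lower (adjusted p = 0.00155) with an input difference of 2.96, while Id1 at −1.29 ± 0.56 was not called. Without the brain input 960 Id1 was called lower, at −2.12 ± 0.27 (adjusted p = 0.00021).

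Arterial genes were 4 higher and 7 lower of 15 and venous genes 0 higher and 5 lower of 9, against 9.48% higher and 11.2% lower of all genes, with medians of −1.31 and −1.50. Without any one of brain input 953, brain positive 421, brain positive 960, choroid input 421, choroid positive 953 or choroid positive 960, 3 venous genes were called lower. Cxcl12, a chemokine of arterial endothelium, had 378, 198 and 275 CPM in the choroid positive libraries, 273, 182 and 205 CPM in the choroid inputs, 751, 844 and 609.5 CPM in the brain positive libraries and 39.3, 37.0 and 32.4 CPM in the brain inputs. Brain positive libraries were the highest, choroid inputs overlapped the choroid positive libraries, and the difference was −3.97 ± 0.35 (adjusted p = 2.38e-05). Fbln5, an elastic fibre protein, and Alpl, alkaline phosphatase of brain vessels, had −3.57 ± 0.27 (adjusted p = 1.1e-05) and −3.63 ± 0.59 (adjusted p = 0.00128). Hey1, given above among the Notch genes, is also on the arterial list and was 1 of its 4 genes called higher. Gja4, a connexin of arteries, was not called, at −0.33 ± 0.39. Among venous genes, the interleukin 1 receptor Il1r1, the kinase Ephb4 and the adhesion molecule Icam1 were lower, at −3.47 ± 0.46 (adjusted p = 0.000344), −1.50 ± 0.25 (adjusted p = 0.00147) and −2.80 ± 0.38 (adjusted p = 0.000344), and Vwf was called at −1.29 ± 0.37 (adjusted p = 0.0291) but in only 4 of the 12 fits that left out 1 library. Nr2f2, the regulator of venous identity, gave −0.45 ± 0.36 and was not called.

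Genes of caveolae, the membrane pits that endothelium uses for vesicle traffic, and of lipid uptake were 1 higher and 4 lower of 10, against 9.48% and 11.2% of all genes, with a median of −0.088. In the paired fit, and without the brain input 960, 2 were called higher. The coat proteins Ptrf (Cavin1) and Sdpr (Cavin2) and the neck protein Ehd2 were lower, at −2.66 ± 0.34 (adjusted p = 0.000281), −2.30 ± 0.32 (adjusted p = 0.000509) and −2.61 ± 0.26 (adjusted p = 5.81e-05). Ptrf had 608, 1082 and 653 CPM in the choroid positive libraries, 241, 202 and 187 CPM in the choroid inputs, 687, 817 and 548 CPM in the brain positive libraries and 33.3, 28.3 and 25.7 CPM in the brain inputs. Its positive libraries overlapped between tissues and its inputs did not. Prkcdbp (Cavin3) was not called, at 0.31 ± 0.26. The lipid genes Gpihbp1 and Fabp4 were listed in choroid only, where each was higher in all 3 positive libraries than in all 3 inputs. Gpihbp1 met the minimum count for a listed gene only through its positive libraries, so its direction is a description. Lpl, lipoprotein lipase, had a difference of −0.011 ± 0.34. Basement membrane genes were 0 higher and 4 lower of 13, against 9.48% and 11.2%, and all 4 called ones had parts in opposition. They were Lamb2 (−1.60 ± 0.27 (adjusted p = 0.00176)), Hspg2 (−1.72 ± 0.43 (adjusted p = 0.0151)), Col18a1 (−2.18 ± 0.45 (adjusted p = 0.00556)) and Nid2 (−2.88 ± 0.46), the last of which overlaps a listed gene on the opposite strand. Col4a1, a collagen IV chain, was not called, at −0.90 ± 0.65, but was called lower in the paired fit, at −1.001 ± 0.27 (adjusted p = 0.031).

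Interferon-response genes were 0 higher and 11 lower of 16, against 9.48% and 11.2% of all genes, with a median of −2.33, a median positive difference of 0.21 and a median input difference of 2.48. Of the 11 called, 10 were called through the input only. Gbp7, an interferon-induced GTPase, had 78.8, 62.1 and 65.3 CPM in the choroid positive libraries, 66.3, 71.5 and 65.6 CPM in the choroid inputs, 79.7, 78.0 and 53.4 CPM in the brain positive libraries and 7.25, 5.27 and 7.08 CPM in the brain inputs. Brain inputs were low and the other 3 groups overlapped. The difference was −3.41 ± 0.28 (adjusted p = 1.51e-05). Irf7 and Ifit3 had −4.11 ± 0.53 (adjusted p = 0.000293) and −2.86 ± 0.42 (adjusted p = 0.000641). Without the brain input 960, 14 of the 16 were called lower. MHC class I genes were 0 higher and 3 lower of 13, against 9.48% and 11.2% of all genes. Among them H2-K1 (−1.003 ± 0.32 (adjusted p = 0.0444), called in 2 of the 12 fits that left out 1 library) and H2-Q7 (−1.40 ± 0.29 (adjusted p = 0.00542)) were called lower, and both may share reads with near-identical genes. In the paired fit H2-K1 was not called, at −1.04 ± 0.34 (adjusted p = 0.0597). Without the brain input 960, 6 class I genes were called lower, and without any one of brain positive 953, choroid input 421, choroid positive 953 or choroid positive 960, 1 was.

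Most genes of leukocytes were enriched by the pull-down in both tissues. Over the pan-leukocyte list 12 of 12 were called enriched in choroid and 11 in brain, against 21.2% and 18.4% of all genes. The sums were 1978 to 2387 CPM in choroid positive libraries, 364 to 641 CPM in choroid inputs, 1213 to 1592 CPM in brain positive libraries and 198 to 268 CPM in brain inputs. The enrichment difference was 1 higher and 6 lower of 12, against 9.48% and 11.2% of all genes, with a median of −1.21. Csf1r, the receptor of macrophages and microglia for colony-stimulating factor 1, had 421, 274 and 421 CPM in the choroid positive libraries, 295, 258 and 319 CPM in the choroid inputs, 943, 1114 and 796 CPM in the brain positive libraries and 89.9, 83.3 and 63.0 CPM in the brain inputs. Brain positive libraries were the highest, and the choroid fractions overlapped. Its difference was −3.24 ± 0.31 (adjusted p = 3.92e-05). Macrophage genes were 0 higher and 3 lower of 14, and microglial genes 0 higher and 2 lower of 12, against 9.48% and 11.2% of all genes. In the paired fit 5 macrophage genes were called lower, and without choroid input 953 4 microglial genes were. Of the microglial list Tmem119 and Olfml3 were called, at −2.64 ± 0.59 (adjusted p = 0.00866) and −2.81 ± 0.37 (adjusted p = 0.000296), while Ctss and C1qa were not, at 0.27 ± 0.48 and −0.20 ± 0.48. P2ry12 and Siglech were listed in brain only. The share of the pull-down that came from blood-lineage cells was not tested.

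Immediate early genes, which cells switch on quickly after a stimulus, were 6 higher and 3 lower of 17, against 9.48% and 11.2% of all genes, with a median of 0.57. In the paired fit, with a block for the replicate number alone, and with library size as the only scaling, each run separately, they were 6 higher and 6 lower. Fos had 18.05, 38.7 and 23.7 CPM in the choroid positive libraries, 10.7, 9.04 and 7.58 CPM in the choroid inputs, 46.8, 40.7 and 38.8 CPM in the brain positive libraries and 71.7, 62.6 and 52.3 CPM in the brain inputs. The brain inputs were the highest, and the pull-down enriched Fos in choroid (1.56) and gave −0.56 in brain. Its difference was 2.12 ± 0.36 (adjusted p = 0.00169). Egr1 and Ier5 were also higher, at 2.10 ± 0.38 (adjusted p = 0.0024) and 1.94 ± 0.27 (adjusted p = 0.000497), and Klf4 was lower (−2.40 ± 0.32 (adjusted p = 0.000348)). Klf2 was not called, at −1.37 ± 0.46, but was called lower without the brain input 960, at −1.98 ± 0.24 (adjusted p = 0.000204), and in the paired fit, at −1.50 ± 0.45 (adjusted p = 0.0443).

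Astrocyte, oligodendrocyte, erythroid and platelet genes gave no calls, of 11, 6, 5 and 3 measured, where 9.48% of all genes were called higher and 11.2% lower. Mbp, the myelin basic protein, varied with 1 choroid pair of libraries: it had 898, 28.8 and 64.9 CPM in the choroid positive libraries, 3215, 104 and 167 CPM in the choroid inputs, 444, 535 and 1073 CPM in the brain positive libraries and 2384, 2618 and 2407 CPM in the brain inputs, and its difference was 0.044 ± 1.76. Without choroid input 421 the median of the oligodendrocyte list was 2.67, against 0.31 with it, and 2 of 6 were called higher. In the paired fit 2 of them were called higher and 1 lower, and without brain positive 960 1 was called higher. Fibroblast genes were 0 higher and 1 lower of 10, and Dcn and Col1a2, of fibroblast matrix, gave 0.53 ± 0.41 and 0.23 ± 0.31. Glycolysis genes were 1 higher and 2 lower of 15, close to the share over all genes, and over the 12 fits that left out 1 library 0 to 1 were called higher and 1 to 3 lower. Hexokinase 2 (Hk2) was called lower (−2.35 ± 0.38 (adjusted p = 0.00115)), whereas Pkm and Aldoa gave 0.19 ± 0.23 and −0.094 ± 0.26. Of 77 cytosolic ribosomal protein genes 1 was called lower, Rplp0 (−1.24 ± 0.37 (adjusted p = 0.033), called in 4 of the 12 fits that left out 1 library), and none higher, with a median of 0.05. Without the brain input 960, 17 were called lower and the median was −0.63.

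Enrichment in opposite directions, both called, was uncommon: 161 genes (1.45%) were enriched in choroid and depleted in brain, and 149 (1.34%) were depleted in choroid and enriched in brain. Aqp1 stood at 2.78 in choroid and −1.26 in brain, and Fabp5 at 3.53 and −0.58. In the other direction, Slc2a1 had an enrichment of −0.84 in choroid and 4.25 in brain, and Stra6 of −2.13 and 4.28. Without choroid input 421 and the brain input 960, an alternative chosen after the data were seen, 308 genes were enriched in choroid and depleted in brain.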

How the data were processed

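RNA was measured in 12 libraries, 3 for each of the 4 groups, grouped by title, with 2 eyes or 0.5 of a brain per sample, lysate cleared at 12000 g and 150 microlitres kept as input, per the labels' protocols. In the raw columns the authors deposited expected counts, of which 72.0% in choroid and 90.2% in brain were not whole to within 0.001, and rounding preceded the models. Deposited normalized values are on a log2 scale centred on each tissue's inputs, and served 1 alternative. Per the file headers, a listed gene has at least 50 counts in every library of at least 1 fraction, so transcripts below that are missing. DESeq and mm10 are named in the submitters' processing notes, and for the aligner and counting tool: not given in the sources used here.

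The tables were joined on gene ID, and the joined genes held 93.2% to 98.7% of each library's listed total. The 12 libraries were fitted together by quasi-likelihood in edgeR 4.0.16 (R 4.3.3) with 8 residual degrees of freedom after TMM scaling, 0 genes being removed by filterByExpr, and p-values were adjusted over all 11121 genes by the Benjamini-Hochberg method, with a call at 0.05. CPM values are TMM-scaled over the joined genes, errors of log2 values are standard errors, and the totals set a counting precision that is lowest in choroid positive libraries. In simulated data with the same totals, 85% of 100 genes changed by 2 on the log2 scale and 15% of 100 changed by 1 were called, with 6 unchanged genes called. The simulation drew independent libraries with a spread set by abundance alone. It had no outlying library and no pairs, so its rates need not hold for the measured libraries.

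Genes were named from the 15 highest and 15 lowest called differences with a mean of at least 10 CPM in 1 group, called in all 12 fits that left out 1 library and of 1 sign in all 3 replicate numbers, the 5 highest and 5 lowest per class of the split, up to 4 called and 2 uncalled members per list, and the markers Ramp3, Plvap, Slco1c1 and Slc22a8. Genes listed in 1 tissue only were named after their values were seen. Members and 36 gene lists were chosen with earlier results of these data known. Of 567 list members 440 were in both tables, 58 in choroid only, 43 in brain only and 26 in neither. Input and positive libraries of 1 number in a tissue come from 1 lysate, per the labels' protocols, and so form pairs. Their deviations from the group means correlated at 0.637, 0.242 and 0.496 in choroid and 0.182, 0.0242 and 0.0733 in brain, the design used the unpaired groups, and the paired fit was an alternative. Other alternatives were other scalings, filters and tools (DESeq2 1.42.0, limma 3.58.1), all 18 libraries in the fit with the retina, a replicate block, and leaving libraries out. Promoter windows came from RefSeq on GRCm38.p6, on which all 11097 genes matched by ID had the chromosome of the tables and 89.2% a start within 1000 bases.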

Additional observations from a re-analysis of the deposited data

Results flagged for a closer look

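Among the genes at the ends of the contrast, 20 had an enrichment called in opposite directions in the 2 tissues together with a called difference (edgeR quasi-likelihood test), unlike genes enriched to a different extent in both. Enriched in choroid and depleted in brain were Lars2 with an enrichment difference of 4.36, Adora2a with 4.26, Fabp5 with 4.11, Aqp1 with 4.04, AI836003 with 3.92, Dlk1 with 3.91, Stmn2 with 3.90, Hecw2 with 3.87 and Ldb2 with 3.64 (log2). Depleted in choroid and enriched in brain were Edn3 with an enrichment difference of −5.35, Adh1 with −5.39, Sema3c with −5.48, Rad54b with −5.61, St6galnac2 with −5.64, Rab11fip1 with −5.85, Pltp with −5.89, Slc22a8 with −6.29, Stra6 with −6.41, Mfsd7c with −6.43 and Slco1c1 with −6.61. The sign of each enrichment difference was the same in all 3 replicate numbers, and each difference was called in all 12 fits that left out 1 library. Both traits were conditions for naming a gene at the ends of the contrast, so they are no separate support. Neither covered the direction of enrichment within a tissue, which was not examined gene by gene in those fits. No cause was tested.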

How the results depend on the processing

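No named gene with a called difference changed sign under any alternative run. With library size as the only scaling, 416 genes were called higher and 2043 lower, the positive difference was called higher for 1690, and enrichment was opposite for 78 genes up in choroid and 226 down in choroid. Under that scaling 12.7% of the genes called lower were called through the positive difference only, and the genes with no part called in the direction of the difference made up 1.44% of those higher and 1.81% of those lower. With the deposited normalized values in limma, 441 were called higher, 1916 lower and 55 opposite with enrichment in choroid. The share with no part called was 1.46% of higher calls with RLE factors, and of lower calls 1.26% in DESeq2, 1.00% with all 18 libraries and 0.972% with a replicate block. DESeq2 called 1152 higher and 1744 lower. Leaving out 1 library, or both fractions of 1 replicate of a tissue, gave 454 to 1387 genes higher and 690 to 1525 lower, 1835 to 3406 and 1611 to 2534 for the positive difference, and 2592 to 3536 and 2463 to 3351 for the input difference. Opposite enrichment then ranged over 56 to 241 and 84 to 178 genes. Of the calls higher, 19.6% to 25.7% were positive only, 36.0% to 49.3% input only, 6.67% to 9.52% both, 18.8% to 30.0% opposed and 0.545% to 3.82% neither. Of the calls lower, the ranges were 7.03% to 10.1%, 36.7% to 55.5%, 6.90% to 8.82%, 28.6% to 46.6% and 0.000% to 0.966%. The library whose absence raised both counts most was the brain input 960 (1387 and 1525). Without it and choroid input 421, chosen after the data were seen, 1644 were called higher, 1571 lower, 308 opposite with enrichment in choroid, and 2.01% of higher calls had no part called. A replicate block called 1202 higher and 1440 lower. Pairing input and positive libraries within tissue called 1044 and 1394 and kept 90.6% of the unpaired calls. It changed the call of 13 of the named genes, 11 of them newly called and 2 lost, and turned the sign of none with a called difference. The 50-count minimum hides genes low in either tissue, and choroid positive libraries, the shallowest, limit low genes. The causes of these shifts were not tested.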

Other observations

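Genes listed in 1 tissue only have no enrichment difference, and their values are CPM of that tissue's listed total. Rpe65, the isomerohydrolase of the visual cycle, had 299, 288 and 488 CPM in choroid positive libraries and 1550.0, 2421 and 1867 CPM in choroid inputs. Lrat, which makes retinyl esters, had 246, 247 and 421 CPM in choroid positive libraries and 1242, 1900.0 and 1867 CPM in choroid inputs. Both were lower in every positive library than in every input. Fabp4, a fatty acid-binding protein of capillary endothelium and fat, had 225, 836 and 367 CPM in choroid positive libraries and 35.7, 64.3 and 31.4 CPM in choroid inputs, and Mcpt4, a mast cell protease, had 92.2, 352 and 141 CPM in choroid positive libraries and 9.81, 18.7 and 12.7 CPM in choroid inputs. Both were higher in every positive library than in every input, and replicate 953 was the highest positive library for each. Among genes listed in brain only, Slc38a5, an amino acid carrier of the barrier, had 105, 116 and 138 CPM in brain positive libraries and 1.93, 2.07 and 5.12 CPM in brain inputs, and Slc19a3, the thiamine carrier, had 49.5, 54.8 and 32.0 CPM in brain positive libraries and 1.16, 1.73 and 1.35 CPM in brain inputs. P2ry12, a receptor of microglia, had 151, 173 and 103 CPM in brain positive libraries and 24.3, 21.5 and 31.2 CPM in brain inputs. All 3 were higher in every positive library than in every input. The remaining members of the barrier transport list found in brain only, Slc7a3 and Slc30a10, went the other way. Each was lower in every brain positive library than in every brain input. Slc38a5 and Slc19a3 met the 50-count listing minimum only through their positive libraries, and all were named after their values were seen. Their direction is therefore a description.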
